A study of Macaca mulatta with 3 samples.

Results

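The regions described here are 976 of the 24248 H3K4me3 peaks that the authors listed for the prefrontal cortex of a rhesus macaque. They are of middle width and rich in tags, and they were chosen by measured values. A member lay on chromosomes 1 to 9, 11 to 15, 17 or 18, spanned 1000 to 2400 bases and held at least 60 ChIP tags, each counted at its 5′ end. Its input per kb was at most 10 times the genome mean of 3.20 tags per kb. No other listed peak lay within 1 kb, and at least 1 lay within 200 kb. Of 17976 listed peaks on these 16 chromosomes, 9968 had the width, 1198 of those had the tags, 1163 met the limit on input, 1035 had no close neighbour and 976 also had a neighbour in reach.

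Chromatin of the superior frontal gyrus, a part of the prefrontal cortex, was taken after death from 1 male aged 3389 days. It was sheared by sonication and precipitated with an antibody against histone H3 trimethylated at lysine 4 (H3K4me3, Abcam ab8580). Sheared DNA from this tissue that was not precipitated served as input, and both libraries were sequenced from 1 end of each fragment. A pool of RNA from 5 males was not analysed here.

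H3K4me3 is laid down by SET1 and MLL methyltransferase complexes on nucleosomes beside the start sites of active and poised genes. At many promoters it flanks a short stretch depleted of nucleosomes, and it often reaches farther on the transcribed side. A tag sequenced from the left end of a fragment maps to the plus strand and a tag from the right end maps to the minus strand. The plus tags of a marked nucleosome therefore lie to its left and the minus tags to its right, and the gap between them reflects the length of the fragments. The tissue mixes neurons and glia, so a profile is an average over cell types, and fewer cells with a mark cannot be told apart from less of the mark per cell. No gene was assigned to these peaks, because the gene table used here belongs to another assembly than the tags.

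The ChIP library held 10023993 tags and the input 9162762, a ratio of 1.09. With a single library per kind, no value has a replicate check, and every test below compares tags within the ChIP library. Intervals are exact Clopper-Pearson intervals at 95%. They cover counting error only, since PCR copies are not independent molecules, and where they concern shares of peaks they treat peaks as independent. ChIP lines span 36 bases, and 80.6% of them carry the code U0, the others U1 or U2. Input lines span 38 bases and all carry U0, so the composition of the deposited libraries differs. Genome-wide, only short distances of up to 60 bases between plus and minus tags were searched. Among these, pairs were most frequent at 36 bases in the ChIP library and 38 in the input, which equals the span of a line in each.

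The members were chosen on width, tags, input and spacing, so the values of this paragraph describe the choice and were not tested. They held 71049 ChIP tags, 0.709% of the library and 8.28% of the ChIP tags found in peaks, in 4.03% of the peaks. Their tags numbered from 60 to 148 with a median of 70, their widths had a median of 2000 bases, and their density ran from 25 to 80.8 tags per kb with a median of 37.2. Input tags numbered from 2 to 70 with a median of 11. The ratio of ChIP to input, scaled by the library totals, had a median of 5.82 and an interquartile range of 4.36 to 7.63, against 3.76 over all listed peaks. It was under 2 in 51 members, and the lowest was 1.44. Only 10 members had the smallest width of 1000 bases, whereas 573 spanned 2000 to 2400 bases. Just inside the tag limit, 177 peaks of 60 to 62 tags had a median ratio of 5.48, and just outside it, 197 peaks of 57 to 59 tags had 5.21. At the upper width, 152 members of 2400 bases held a median of 31.7 tags per kb, and 139 otherwise eligible peaks of 2600 bases held 29.2. At the lower width, 10 members of 1000 bases held 64.0 tags per kb and 6 peaks of 800 bases held 78.8.

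Members were spread over all 16 chromosomes, from 19 on chromosome 12 to 154 on chromosome 1, or 2.88% to 7.03% of the peaks listed on each chromosome. Their nearest listed peak lay a median of 34.3 kb away. It lay within 5 kb for 126 members and over 100 kb away for 134, and in 85 cases it was itself a member. Plus tags numbered 35428 and minus tags 35621. Among single members the plus share had a median of 50.0% and ran from 19.6% to 72.1%. Repeated positions made up 0.625% of the members' tags, and 78.7% of tags carried U0, against 80.6% in the whole library.

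Seen together, the members formed a single broad plateau without a dip at the midpoint, in which plus tags led on the left and minus tags on the right. Within 200 bases of the midpoint the plus strand held 22.8 tags per kb and the minus strand 22.7. At 800 to 1000 bases to the left the plus strand held 12.0 tags per kb and the minus strand 8.53. The order was the other way around to the right, with 8.48 on plus and 12.0 on minus. The strands thus drew nearly the same profile, displaced from each other along the chromosome.

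**Figure D1:**
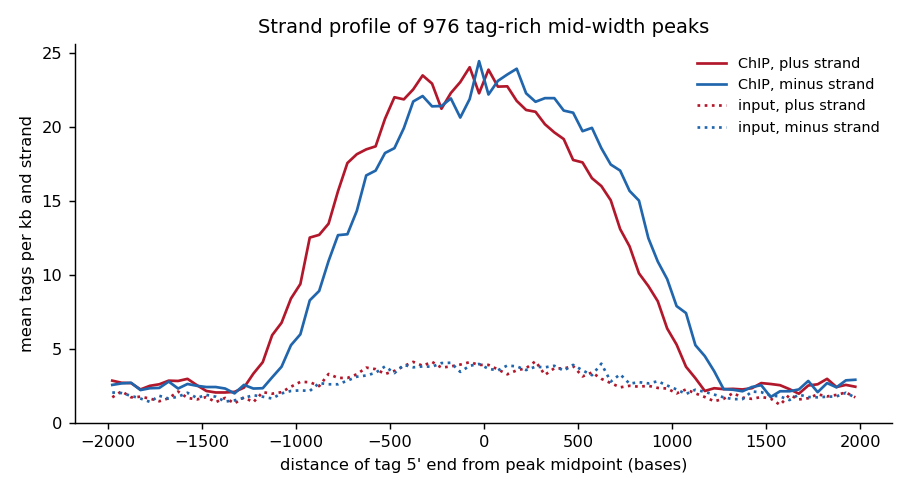
Mean tags per kb and strand (vertical axis) against distance of the 5′ end from the midpoint of the listed interval (horizontal axis, bases, steps of 50) over the 976 members, with solid lines for ChIP and dotted lines for input. Both ChIP strands form a plateau near 22.8 tags per kb, with the plus strand displaced to the left, and the input follows a lower rise of the same outline.

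The input rose over the members as well. Its plus strand held 3.76 tags per kb at the centre and 1.72 beyond 1400 bases on each side, a factor of 2.19, where the ChIP plus strand rose by a factor of 9.00. The input also stood apart by strand, with 2.82 tags per kb on plus and 2.41 on minus at 800 to 1000 bases to the left. The precipitated and the unprecipitated chromatin therefore shared an outline, of unequal height. The part that this shared outline plays in the shapes below was not tested, and input values are given beside most results.

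The distance between the strands was about 100 to 125 bases by each of 3 measures. The median position of minus tags lay 57 bases to the right of the midpoint and that of plus tags 66 bases to its left, 123 bases apart, and in the input the distance was 72. At the left listed edge the plus strand reached the middle of its rise 28 bases outside the edge and the minus strand 86 bases inside, 114 bases apart. At the right edge the minus strand extended 18 bases outside and the plus strand ended 84 bases inside, 102 bases apart. In the input the plus strand lay 36 bases outside the left edge and the minus strand 64 bases inside. At the right edge the input's minus strand ended 25 bases inside and its plus strand 73 bases inside. The edges follow steps of 200 bases and were drawn from these same tags.

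Counting pairs of plus and minus tags within a member, the smoothed count was highest at a lag of 122 bases, with 1009 pairs per base of lag. At the same distance with the minus tag upstream there were 661 pairs, a ratio of 1.53. The top was broad: the count stayed at or above 95% of its highest value from 85 to 156 bases. A lower maximum near the length of a tag, with a ratio of 1.27 at 36 bases, was separated from it by a shallow trough at 50 bases. In the input, pairs at a lag of 122 bases outnumbered those at the reverse distance by a factor of 1.26, and the ratio at the span of an input line was higher, 1.66.

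**Figure D2:**
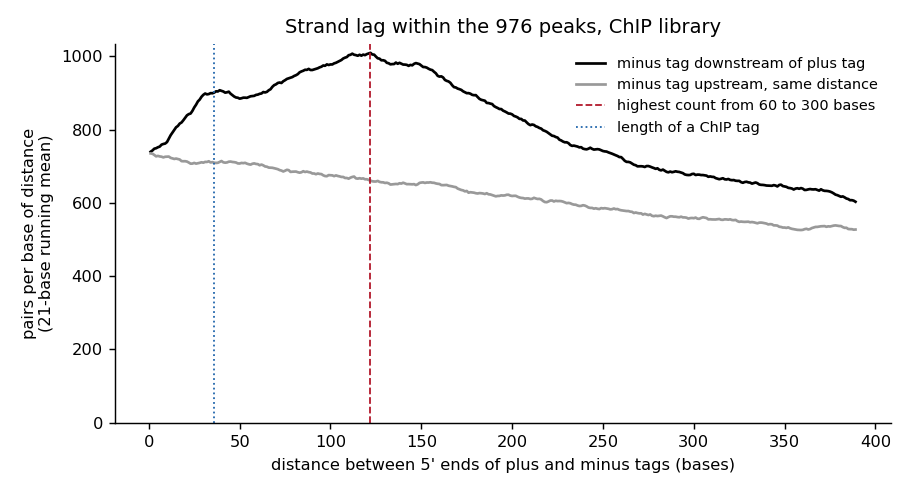
Pairs of plus and minus ChIP tags within a member per base of distance (vertical axis, 21-base running mean) against the distance between their 5′ ends (horizontal axis, bases), for minus tags downstream (black) and upstream (grey) of the plus tag. The black curve rises to 1009 pairs at 122 bases, where the grey one stands at 661, and a lower shoulder sits at the 36 bases of a tag.

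The position of the highest point was less sharp than its presence. By chromosome it ran from 71 bases on chromosome 14 to 149 on chromosome 13, with a median of 120.5 and a standard deviation of 20.9. With each chromosome left out in turn it was 112 to 122. Members of 1000 to 1400 bases had 118, those with widths of 1600 and 1800 had 121 and the widest, from 2000 bases, had 112, which differ by less than the spread between chromosomes. The same rule on chromosomes 10, 16, 19 and 20 gave 268 peaks and a lag of 114 bases, with a ratio of 1.54. Otherwise eligible peaks of 1000 to 2400 bases with 20 to 59 tags gave 120 bases, and wider peaks gave 117. The peaks of 20 to 59 tags had a median width of 1400 bases, against 2000 in the members. Here and below they therefore differ from the members in width as well as in tags. The 38 members with at least 100 tags gave 80 bases.

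No second maximum of comparable size followed at longer lags. The ratio of forward to reverse pairs fell to 1.36 at 200 bases, 1.27 at 250 and 1.22 at 300. Distances between distinct tags of the same strand showed no separate maximum either. Their number, as a 41-base running mean, fell at each of 25 steps of 20 bases between 60 and 560 bases, from 1754 to 964 pairs per base. The fall was slower from 160 to 200 bases, from 1380 to 1337 pairs, than from 120 to 160 bases, where it began at 1492. A preferred spacing too weak to reverse the fall would not appear as a maximum. These counts pool all members, so spacing that differs between them would be blurred.

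Left and right sides of a member were often unequal. To compare them, tags were moved 75 bases downstream, toward the middle of their fragments, and counted on each side of the midpoint. Moved in this way, 152 of 976 members (15.6%, 13.4 to 18) were called asymmetric by a two-sided exact binomial test at an adjusted p below 0.05, with Benjamini-Hochberg adjustment over all 24248 listed peaks. The same test called 4.00% of all listed peaks, most of which hold fewer tags than a member and so give the test less to work with. At an unadjusted p below 0.05 there were 361 members, 37% of them, against 13.9% of all listed peaks. Of the 152, 78 were heavier on the left and 74 on the right, so no side of the chromosome was preferred. The heavier side of a called member held from 65.7% to 90.4% of its tags, with a median of 73.6%.

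By tags, 14.3% of the 484 members with 60 to 69 tags were called (11.3 to 17.7) and 11.3% of the 282 with 70 to 79 (7.89 to 15.6). The share was 19.8% of the 172 members with 80 to 99 tags (14.1 to 26.5) and 44.7% of the 38 with 100 or more (28.6 to 61.7), so only the last interval lay apart from the others. More tags also give the test more to work with, and the input of these 38 members is described below. By chromosome, 6.56% of members were called on chromosome 6 and 24.4% on chromosome 9. In the same classes of width 16.3%, 17.9% and 14.3% were called, with overlapping intervals. The same rule on the other 4 chromosomes had 55 of 268 peaks called, 20.5% (15.9 to 25.9), and wider peaks 99 of 645, 15.3% (12.7 to 18.4). Peaks of 20 to 59 tags had 222 of 5593 called, at fewer tags each and mostly smaller widths.

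The strands of a member leaned together. In 706 members plus and minus tags were heavier on the same side, in 206 on opposite sides, and in the others at least 1 strand was even. When the heavier side was chosen on 1 strand and read on the other, that side held 58.5% of the tags of the strand that had no part in the choice (58.2 to 58.9). An even division would give 50%. The value ran from 55.0% to 62.6% over the 16 chromosomes. It was 58.7% with minus tags read and 58.4% with plus tags read. Where the choosing strand had at least 66.7% of its tags on 1 side, the other strand had 66.4% there (65.7 to 67.1). The members' lean is therefore larger than the counting error of a strand.

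**Figure D3:**
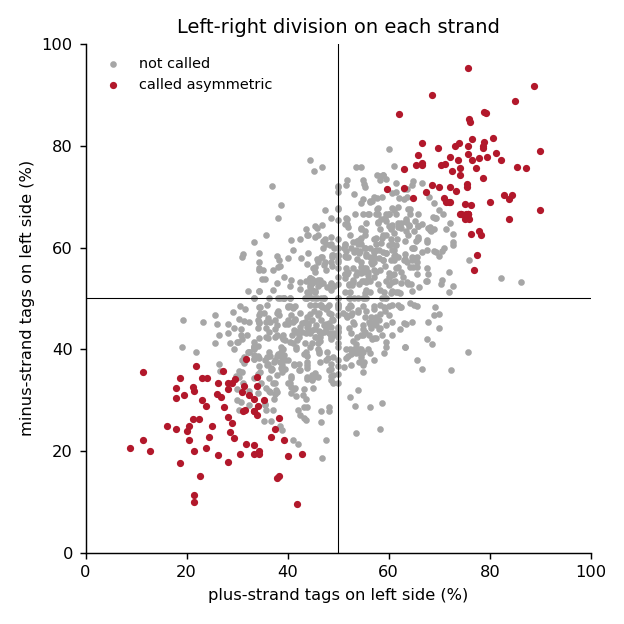
Percent of a member's minus-strand tags on the left side of its midpoint (vertical axis) against percent of its plus-strand tags there (horizontal axis), 1 point for each of 976 members, tags moved 75 bases. The 152 called members (red) sit in the lower left and upper right corners, and all of them lean to the same side on both strands. The call adds the tags of both strands and so favours members whose strands lean together.

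Over all members the input leaned toward the same side, by less. On the side chosen from 1 ChIP strand the input held 54.3% of its tags (53.7 to 55.0), and on all 16 chromosomes its share was below that of the ChIP strand. In the 152 called members the heavier side held 74.0% of ChIP tags and 64.8% of input tags (62.8 to 66.8). That ChIP share is high by the choice, since the same tags made the call, whereas the input had no part in it. The input was heavier on the same side in 108 of the 152 members, on the other side in 36 and even in 8. Measured without regard to depth, as the product of the deviations of the plus and the minus strand, the members' left share differed from 50% by a root mean square of 12.0 percentage points, with 8.70 to 15 over the chromosomes. The product of ChIP and input deviations gave 7.92 points. On the same scale the strands gave 12.9 points in the 268 peaks of the other chromosomes, 9.67 in wider peaks and 9.00 in peaks of 20 to 59 tags (7.10 to 10.9 over the chromosomes), whose range overlaps that of the members.

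The lean of called members went slightly beyond the listed edges, and no preference for the side of the nearest listed peak was detectable. In the 152 called members the 1 kb outside the heavier side held 873 of the 1561 ChIP tags in both flanks, 55.9% (53.4 to 58.4). Over all members with unequal sides the share was 51.8% (50.8 to 52.8), 4950 of 9560 tags. Of the input tags in the flanks of called members 49.0% lay on the heavier side (46.0 to 52.1). The heavier side faced the nearest listed peak in 80 of 149 called members with an unequal distance, and in 475 of 956 of all such members with unequal sides, 49.7% (46.5 to 52.9). Among the 126 members with a listed peak within 5 kb, 12.7% were called, against 16% of the rest, and these intervals overlapped.

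The most uneven members with at least 100 tags show how tags were laid out. The most left-heavy lay on chromosome 11 at 2871001 to 2873000, with 113 tags left of the midpoint and 12 right of it (90.4%, 83.8 to 94.9; adjusted p = 8.30e-19 by the binomial test). In steps of 200 bases from the left its tags numbered 31, 43, 37, 2, 0, 3, 2, 4, 0 and 3, so 3 steps held nearly all of them. Its input was laid out alike, at 12, 17, 21, 3, 1, 0, 1, 2, 0 and 1 tags, and its ratio of ChIP to input was only 1.89 (1.38 to 2.61). This member thus stands out in its unprecipitated chromatin as well. With counting limited to 500 bases from the midpoint its left share was 60% and it was no longer called.

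The next, on chromosome 9 at 12609801 to 12611600, had 87 tags to the left against 21 (80.6%, adjusted p = 4.21e-08 by the binomial test). Its steps held 16, 34, 22, 11, 5, 5, 8, 3 and 4 tags, a decline away from a summit near the left edge. Its 16 input tags divided into 10 and 6, and its ratio was 6.11. Within 500 bases of the midpoint its left share was 72.5% and the call was lost.

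The most right-heavy member lay on chromosome 7 at 54545001 to 54547200, where 84 tags lay right of the midpoint and 16 left of it (84.0%, 75.3 to 90.6; adjusted p = 1.47e-09 by the binomial test). Its last 5 steps held 9, 9, 19, 27 and 19 tags, after 4, 2, 5, 1, 4 and 1. Both strands were heavier on the right, with 48 plus and 36 minus tags there. Over the last 5 steps the plus strand held 6, 6, 11, 12 and 12 tags, and the minus strand 3, 3, 8, 15 and 7. Within 500 bases of the midpoint its left share was 20.8% and the call was lost. Only 10 input tags lay here, a ratio of 9.14 (4.77 to 19.6). On chromosome 3 at 58124401 to 58126200, 83 of 104 tags lay on the right (79.8%, adjusted p = 2.45e-07 by the binomial test), of which 49 fell in the last step but 1 and 27 in the last. With counting limited to 500 bases from the midpoint, where few of its tags lie, its left share was 66.7%.

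Most members had neither a dip nor a summit at the midpoint that these tags could resolve. The central 200 bases were compared with 2 shoulders of 200 bases each, from 300 to 500 bases on either side, where an even profile would put 33.3% of the tags in the centre. Over all members the central share was 35.8% (35.2 to 36.4), with 9094 tags in the centre, 8304 on the left shoulder and 8033 on the right. In the input it was 34.0% (32.6 to 35.5). The centre was thus slightly higher than the shoulders, and narrower members showed it more. The share was 40.7% (39.2 to 42.2) in the narrowest class, where the shoulders lie nearest the edges and the input had 35.2% (32 to 38.4). It was 35.1% in the middle class and 34.7% (33.9 to 35.5) in the widest, where the input had 33.9% and 33.7%.

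Among single members 59 (6.05%, 4.63 to 7.73) were called as central summits and 12 (1.23%, 0.637 to 2.14) as central dips, by the two-sided exact binomial test with Benjamini-Hochberg adjustment over 14942 listed peaks of at least 1000 bases with tags in these windows. Over those peaks 1.95% were called summits and 0.582% dips, at fewer tags each. At an unadjusted p below 0.05, 147 members (15.1%) were above and 106 (10.9%) below their shoulders, against 7.72% and 5.11% of those peaks. The same rule on the other 4 chromosomes had 13 summits and 8 dips among 268 peaks (4.85% and 2.99%), wider peaks had 17 and 8 among 645 (2.64% and 1.24%), and the intervals of the dips overlapped those of the members. For summits the interval of the wider peaks, 1.54% to 4.19%, lay below that of the members. A call either way left 905 members (92.7%) uncalled, and 762 members were neither asymmetric, dipped nor peaked by these tests.

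The input moved with these calls too. In the 59 summits the centre held 71.2% of ChIP window tags and 46.7% of input tags (41 to 52.5). In the 12 dips it held 5.25% of ChIP tags and 12.5% of input tags (4.73 to 25.2), 6 of 48. These ChIP shares are extreme by the choice, since the same tags made the calls, whereas the input had no part in them. Input was above its even share in 32 of the 59 summits and below it in 21, and in the dips it was below in 7 and above in 3. The part of the input's shape in these calls was not tested. Without the 70 members whose input exceeded 5 times the genome mean, an alternative chosen after the data were examined, 55 summits, 11 dips and 135 asymmetric members were called among 906.

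The deepest dips had an empty centre between filled sides. On chromosome 13 at 54070001 to 54071800 the steps of 200 bases held 3, 13, 21, 6, 1, 11, 15, 9 and 5 tags. Its centre held 1 tag and its shoulders 21 and 15 (2.70%, adjusted p = 0.00170 by the binomial test). The sides were even, with 44 and 40 tags, so 2 summits of like size flanked the gap. All 8 of its input tags were spread over the steps at 0 to 2 each, and its ratio was 9.26.

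Chromosome 15 at 5970001 to 5972000 had no tag in the centre and 13 on each shoulder (0%, upper bound 13.2%; adjusted p = 0.00378 by the binomial test). Its steps were 3, 0, 3, 19, 0, 2, 13, 4, 23 and 6, so its gap was 1 of several, and its input had 0 central and 2 shoulder tags. Chromosome 1 at 130238401 to 130240600 also had an empty centre, with 9 and 13 tags on the shoulders (adjusted p = 0.0128 by the binomial test), and leaned right with 51 of 69 tags. Its 0 central and 5 shoulder input tags fall in the same places. With U0 tags alone neither of these dips was called, with 0% still in the centre. The chromosome 1 dip was also lost with tags not moved (12% in the centre) and with tags moved 50 bases (4.35%). Its lean to the right (adjusted p = 0.00537 by the binomial test) was lost with U0 tags alone, at 28.6% on the left, and within 500 bases of the midpoint, at 27.9%. Chromosome 2 at 187853401 to 187855000 had 1 central tag against 27 and 5 (3.03%, adjusted p = 0.00504 by the binomial test). There the dip lay beside a left-hand summit, with 46 of 58 tags on the left, rather than between equal sides.

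The 4 members with the highest central share differed in width of the summit. On chromosome 1 at 35534001 to 35535600 the centre held 40 tags and the shoulders 0 and 1 (97.6%, 87.1 to 99.9; adjusted p = 4.86e-15 by the binomial test). Its steps were 2, 0, 5, 43, 17, 3, 2 and 8, so 60 of 80 tags lay in 2 adjoining steps. Its 7 input tags included 4 in the centre and none on the shoulders. Another on chromosome 1, at 37730801 to 37732200, had 38 central tags against 2 and 1 (92.7%, adjusted p = 4.03e-12 by the binomial test). Its input was drawn in likewise, with 11 central and 0 shoulder tags, and its ratio was 3.15.

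A called centre was not always the only summit. On chromosome 9 at 97035601 to 97038000 the centre held 19 tags and the shoulders 0 and 2 (adjusted p = 4.35e-05 by the binomial test). Its steps of 3, 18, 11, 5, 0, 11, 12, 4, 3, 3, 1 and 5 show a second group of tags farther left, beyond the shoulder. Its input had 0 central and 5 shoulder tags. With tags not moved its central share was 61.5% and the call was lost. On chromosome 1 at 222647401 to 222649000 the centre held 16 tags against 0 and 3 (adjusted p = 0.00122 by the binomial test). Its steps of 7, 4, 10, 11, 16, 9, 15 and 10 were uneven, with 16 tags just right of the midpoint and 15 in the last step but 1. With shoulders at 200 to 400 bases its central share was 45.7% and it was no longer called. That call was lost with tags not moved too, at 58.3%.

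**Figure D4:**
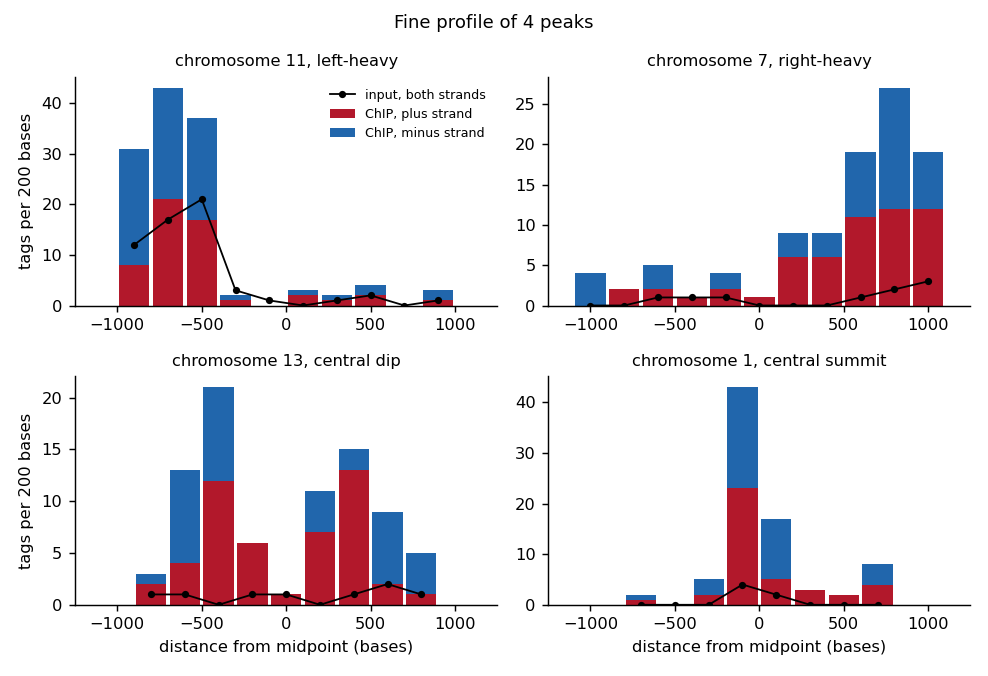
Tags per 200 bases (vertical axis, tags moved 75 bases) against distance from the midpoint (horizontal axis, bases) in 4 members, with plus-strand (red) and minus-strand (blue) ChIP tags stacked and input tags of both strands as a black line. The chromosome 11 member has its tags, input included, in 3 steps at the left, that on chromosome 7 has most of its tags in the 3 steps at the right, that on chromosome 13 has 1 tag in its middle step, and that on chromosome 1 has 60 of 80 tags in 2 steps.

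The members with most tags did not share a shape. On chromosome 1 at 134253201 to 134255600, 148 tags stood against 30 in the input, and 106 of 149 moved tags lay on the left (71.1%, adjusted p = 4.80e-05 by the binomial test). On chromosome 14 at 67009401 to 67011800, 140 tags stood against 70 in the input, a ratio of 1.83 (1.36 to 2.47). It was called a central summit, with 33 central tags against 4 and 16 (adjusted p = 0.00313 by the binomial test), and its input had 18 central and 18 shoulder tags. With tags moved 75 bases, plus and minus tags leaned apart, with 27 of 73 plus tags and 49 of 68 minus tags on the left. Both strands together had 53.9% on the left and this member was not called asymmetric. With tags not moved its left share was 63.6% and it was called, so its division depends on the move. Chromosome 4 at 30136601 to 30139000 had 137 tags with 85 of 134 on the right (adjusted p = 0.056 by the binomial test, not called with the tags moved 75 bases). With tags moved 50 bases or not moved it was called. Chromosome 2 at 78831601 to 78833800 had 136 tags in even sides of 73 and 63, but its steps of 5, 20, 15, 20, 6, 15, 5, 6, 39, 2 and 3 show a left-hand group and a sharp right-hand summit. The comparison of sides and that of the centre both miss such a profile.

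Gaps inside members were therefore sought wherever they lay. The 2 highest summits at least 200 bases apart and the lowest point between them were located on 1 strand, smoothed with a Gaussian of 50 bases, and the other strand was read in 101 bases at each place. On the strand that chose the places, the valley held 5.39 tags per kb, a value set low by the choice. On the other strand the higher summit held 39.1 tags per kb, the lower summit 28.5 and the valley 16.8, where the mean over the members was 19.03. The valley thus stood at 0.498 of the mean of its summits (0.480 to 0.518), with a range of 0.418 to 0.585 over the chromosomes. Pooled over members, places that stood high or low on 1 strand thus did so on the other, with the valley only a little under the mean over the members. Each strand of all 976 members yielded 2 summits and a valley, 1952 choices in total. A member with a single true summit would do so too, so the ratio does not show how many members have a gap.

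**Figure D5:**
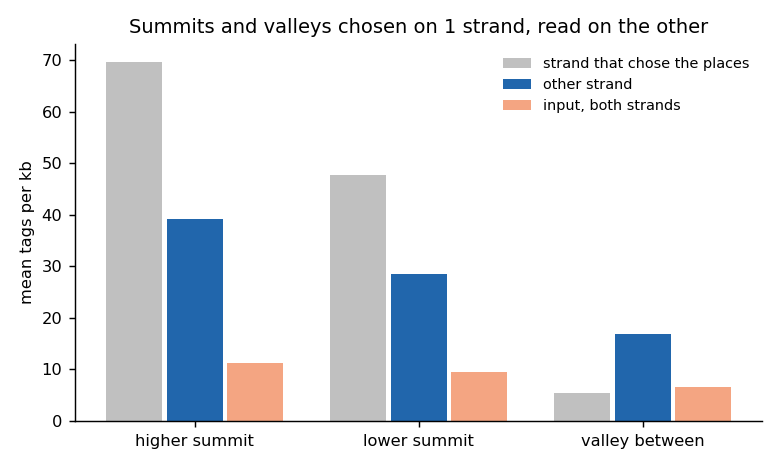
Mean tags per kb (vertical axis) at the higher summit, the lower summit and the valley between them, for the strand on which the places were chosen (grey), the other ChIP strand (blue) and the input (orange, both strands together), pooled over 1952 choices in 976 members. On the other strand the 3 places hold 39.1, 28.5 and 16.8 tags per kb, and the input falls as well, from 11.3 and 9.54 to 6.51.

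At the same places the input held 11.3, 9.54 and 6.51 tags per kb, so its valley stood at 0.625 of its summits (0.587 to 0.666). The ChIP valley was the deeper by a factor of 0.797, and it was deeper on 13 of 16 chromosomes. Depth grew with the distance between summits. For summits under 400 bases apart the other strand's valley stood at 0.675 and the input's at 0.838. From 400 to under 800 bases the ratios were 0.450 and 0.571, and from 800 bases they were 0.341 and 0.442. The lowest point was chosen over a longer stretch where summits lay farther apart, so this order is a description. In the 38 members with at least 100 tags the order turned, with 0.634 on the other strand and 0.527 in the input.

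The move of tags matters for the valleys. With 5′ ends left where they were, the other strand held 1.15 times as many tags in the valley as at the summits, and the input 0.75 times. The other shape measures kept their direction, with 57.1% of the other strand on the chosen side. All values of valleys above therefore hold for tags moved downstream.

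The pattern of the valleys was shared by the same rule elsewhere. In the 268 peaks on chromosomes 10, 16, 19 and 20 the other strand's valley stood at 0.550 (0.513 to 0.590) and the input's at 0.694, a factor of 0.793 between them. In wider peaks the ratios were 0.467 and 0.468, so there the ChIP valley was no deeper than that of the input. In peaks of 20 to 59 tags they were 0.612 and 0.691, with the places chosen on fewer tags and in mostly narrower peaks. Whether these sets differ from the members was not tested.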

How the data were processed

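The authors deposited, for each library, 1 line per aligned tag with position, strand, code and a score; that deposited score was 0 throughout and was not used. Their deposited list of ChIP peaks gives each peak a p-value or q-value, and whether it is adjusted is not stated. Tags of 36 bases were sequenced, per the labels' protocols. The submitters' processing notes name TopHat and SICER, without version or role. Neither aligner nor genome build is given in the sources used here. Positions follow the deposited files, counted from 1. No genome of this build was at hand, so no sequence is shown.

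Tags were placed at their 5′ ends and, for shape, moved 75 bases downstream. Exact binomial tests ran over all listed peaks, with Benjamini-Hochberg adjustment. Lags were searched from 60 to 300 bases with a 21-base running mean. Named regions follow a fixed rule: the 4 members with most tags, the 2 most left-heavy and 2 most right-heavy called members of at least 100 tags, the 4 lowest called dips and the 4 highest called summits. The members and measures were chosen with earlier results of these data known. The product of strand deviations, the flank and neighbour counts and the tag spacing are descriptions outside the planned tests. The functions were tested on simulated tags. Scripts ran in Python 3.11.15 with pandas 2.3.3, scipy 1.17.1, numpy 2.4.6 and matplotlib 3.10.9.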

Additional observations from a re-analysis of the deposited data

How the results depend on the processing

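No paired analysis was possible because each kind of library is a single sample. Of 62 alternatives for the results over all members, 37 stayed within 1.5 times for counts, or within the interval or the spread between chromosomes for values; unless stated, the cause of the others was not tested. With tags not moved, 38 summits were called, the valley stood at 1.15 (input 0.75), and the chosen side held 57.1%. With tags moved 50 bases there were 19 dips and a valley of 0.476. With U0 tags alone, 97 members were asymmetric and 5 dipped, at fewer tags, with a valley of 0.529 and 58.1% on the chosen side. The 38 members of at least 100 tags gave 17 asymmetric, 1 dip, 5 summits, valleys of 0.634 (input 0.527), 60.6% on the chosen side (input 60.3%) and a lag of 80 bases; their counts are lower because fewer members enter. Within 500 bases of the midpoint, 93 members were asymmetric. Members with a deposited value of at most 1e-10 had a valley of 0.465 and 52.6% of input on the chosen side. Smoothing of 30 and 80 bases gave valleys of 0.529 and 0.458. With input at most 5 times the genome mean, chosen after the data were examined, the valley was 0.462 and the input share 52.8%. The chromosome 3 member was reversed to a left share of 66.7% within 500 bases. Of 160 alternatives for named regions, 143 left the outcome unchanged, 12 lost a call and 4 gained one. The 143 include results that were called neither in the main setting nor in the alternative, so they are not all calls that held. Members held 60 to 148 tags, which limits the precision of a single member's shape.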
